A study of Mus musculus with 3 samples.

Results

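The transcripts of 10 genes of fatty acid handling and adipogenesis, Fabp4, Fabp5, Ffar4, Cd36, Lpl, Pparg, Cebpa, Adipoq, Plin2 and Apoe, were followed in single cells of the mouse fracture callus. Each of the 10 matched 1 symbol among the 32285 genes of the deposited tables. The set was chosen because Fabp4, Fabp5 and Ffar4 had led separate clusters of these same cells, so that the high levels of these 3 genes somewhere in the callus are a description and not a result. Cells came from the femoral callus of C57BL/6 mice on day 7, day 10 or day 14 after fracture, with no treatment, and were sorted to exclude cells with CD45, CD31 or TER119 on their surface before 10x Genomics 3′ sequencing. There was 1 library for each day, with no replicate and no unfractured bone, so day and library cannot be told apart and no difference between days or cells was tested. How many animals went into a library is not given in the sources used here.

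Fatty acids reach cells from lipoproteins, which lipoprotein lipase (Lpl) hydrolyses at the vessel wall, and by uptake through carriers such as CD36. Inside the cell they are bound by fatty acid binding proteins (Fabp4, Fabp5) and stored as triglyceride in droplets coated by perilipin 2 (Plin2). Ffar4 encodes a cell surface receptor for long-chain fatty acids. Pparg and Cebpa encode the transcription factors that drive adipogenesis, adiponectin (Adipoq) is a hormone of adipocytes and of adipogenic stromal cells of the marrow, and apolipoprotein E (Apoe) carries lipid between cells.

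The values are counts of unique molecular identifiers (UMIs, 1 for each captured transcript), summed over the cells of a group and given per 1000000 UMIs of that group (CPM). Intervals are exact 95% intervals and cover counting error only, not the spread between animals. A count of 0 is bounded by the level of 3 UMIs, the one-sided 95% limit. After the quality limits of the study there remained 7017 cells on day 7, 6593 on day 10 and 9853 on day 14, with 55187609, 113618580 and 154573230 UMIs. On day 7, 6570 of the 7017 cells had UMIs of Ptprc, the gene of CD45, against 6 cells on day 10 and 173 on day 14, despite the sort. Cells with no Ptprc UMI were then grouped by 6 genes, and those high for a gene had at least 3 of its UMIs and a CPM of at least 0.25 of the gene's 99th percentile. On day 10 and day 14 there were 55 and 69 cells high for Cyp1b1, 1001 and 2463 for Aspn, 2726 and 1620 for Cnmd, 380 and 866 for Col10a1, 120 and 365 for Ifitm5, and 71 and 198 for Rgs5. Another 2234 and 4099 cells were high for none. At the threshold for Aspn, the lowest cell inside on day 10 had 2986 CPM and the highest outside 2985 CPM, so that the groups are ranges of a level and not types. For Cyp1b1, with a threshold of 48.8 CPM, the lowest cells inside had 117 and 95.1 CPM on days 10 and 14. The highest outside had 690 and 1120 CPM, so that the 3 UMIs, and with them the depth of a cell, also decided membership of this group. On day 7, the single group with 20 or more cells was the Cnmd-high group, with 56.

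The groups were checked on genes that had not chosen them. Postn was at 4351 CPM on day 10 and 3336 CPM on day 14 in Aspn-high cells, against 894 and 639 in the others, and all 5 check genes of this group (with Ogn, Ptn, Thbs2 and Col3a1) were at least 2-fold higher on both days. Of the 6 cartilage genes checked in Cnmd-high cells 5 were higher, among them Col2a1 at 45453 and 39636 CPM. Ihh, a signal of prehypertrophic and hypertrophic chondrocytes, was at 959 and 949 CPM in Col10a1-high cells, where 4 of 6 genes were higher. In Ifitm5-high cells, 6 of 6 bone matrix genes were higher, and Bglap, osteocalcin, reached 7765 and 4590 CPM. Of the 6 mural cell genes checked in Rgs5-high cells, 2 had at least 10 UMIs anticipated on each side, the minimum to be counted. Of these Pdgfrb was higher, at 460 and 468 CPM against 47.0 and 52.6. Cspg4, at 303 and 198 CPM, stood at the 299 and 198 CPM of all cells without Ptprc. The others were too rare over all cells for that minimum, but were far higher in this group. Mcam was at 380 and 279 CPM, against 5.15 and 5.39 in all cells without Ptprc. Notch3 was at 374 and 399 CPM (against 5.42 and 8.86), Kcnj8 at 157 and 230 (1.51 and 3.45) and Abcc9 at 297 and 309 (3.27 and 5.17). Cyp1b1-high cells held the chemokine gene Cxcl12 at 622 and 1250 CPM, against 33.4 and 54.3 in all other cells.

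RefSeq windows of 300 bases around the transcription start were at hand for 7 of the 10 genes, all but Fabp4, Fabp5 and Lpl. The windows of Ffar4 and Plin2 are shown because these 2 were the members higher in Col10a1-high cells. Ffar4 lies on chromosome 19 (38097071 to 38114263, plus strand) and Plin2 on chromosome 4 (86648386 to 86670060, minus strand) of GRCm38. The windows, of build GRCm38.p6, are given 5′ to 3′ on the strand of the gene, with motif matches in capitals.
Ffar4, chr19:38096829-38097128: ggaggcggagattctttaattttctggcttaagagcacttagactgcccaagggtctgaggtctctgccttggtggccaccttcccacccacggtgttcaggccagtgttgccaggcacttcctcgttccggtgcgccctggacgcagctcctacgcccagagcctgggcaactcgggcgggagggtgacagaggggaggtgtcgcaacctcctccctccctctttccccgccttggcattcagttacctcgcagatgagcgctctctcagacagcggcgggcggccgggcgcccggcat
Plin2, chr4:86670010-86670309: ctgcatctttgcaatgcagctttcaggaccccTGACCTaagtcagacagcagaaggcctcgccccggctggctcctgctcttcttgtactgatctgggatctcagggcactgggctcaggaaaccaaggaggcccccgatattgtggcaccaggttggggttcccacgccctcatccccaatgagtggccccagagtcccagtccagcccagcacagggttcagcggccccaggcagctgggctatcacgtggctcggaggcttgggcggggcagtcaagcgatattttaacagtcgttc
The motifs searched, on both strands, were the nuclear receptor element AGGTCA, 2 such elements in tandem with 1 base between them, the TATA box TATAAA, the C/EBP-type TTGCNNAA and the RUNX-type TGTGGT. The Plin2 window held 1 AGGTCA element, on the opposite strand (TGACCT as printed), and the Ffar4 window held none of the 5 motifs. Of the 32851 windows in the table, 16.3% held the single element, 0.0396% the tandem, 13.6% a TATA box, 10.8% the C/EBP-type and 16.8% the RUNX-type motif. The GC content was 63.7% in the Ffar4 window and 60.7% in the Plin2 window, against a median of 52.7% over all windows.

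By summed level, Fabp4, the adipocyte fatty acid binding protein, was highest in Rgs5-high cells. It was at 326 CPM on day 10 (interval 291 to 365, 306 UMIs) and 454 CPM on day 14 (425 to 483, 963 UMIs). Cyp1b1-high cells came next at 228 CPM (197 to 262) and 191 CPM (165 to 220). Both groups stood far above the others, with intervals that did not overlap those of any other group on either day. Cnmd-high cells were at 36.9 CPM on day 7 (17.0 CPM, 13.6 to 21.0, without the upper limit of genes a cell), 14.4 on day 10 and 24.4 on day 14, and Aspn-high cells at 8.13 and 22.2 CPM. Col10a1-high cells (1.55 and 2.72 CPM) and Ifitm5-high cells (2.76 and 3.46 CPM) were lowest, and their intervals overlapped on both days. Against all other cells without Ptprc, the ratio was 17.3 (15.3 to 19.5) and 15.5 (14.5 to 16.7) in Rgs5-high cells, and 11.5 (9.87 to 13.3) and 5.62 (4.85 to 6.48) in Cyp1b1-high cells.

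The Fabp4 transcripts of the Rgs5-high group sat in a minority of its cells. The median cell had none on either day, and the tenth of cells with the highest level accounted for 92.2% of the summed level over cells on day 10 and 74% on day 14. With each cell thinned to 2000 UMIs, 15.9% of 69 Rgs5-high cells had a Fabp4 UMI on day 10 (interval 8.24 to 26.7) and 25.1% of 195 on day 14 (19.2 to 31.8). Without thinning these shares were 26.8% and 43.4%. In Cyp1b1-high cells the thinned shares were 14.5% (6.49 to 26.7) and 20.3% (11.6 to 31.7) and the unthinned ones 56.4% and 43.5%, so that by cells these 2 groups were not separated after thinning, and on day 10 the order of the unthinned shares was the opposite of that of the summed levels. The median Cyp1b1-high cell was at 54.9 CPM on day 10 and 0 on day 14. In Ifitm5-high cells the thinned shares were 0% of 119 and 0.826% of 363, and the unthinned shares were 3.33% and 2.47%, at median depths of 19386 and 15115 UMIs a cell against 12529 and 9262.5 in Rgs5-high cells. Endothelial cells also express Fabp4, and the 10 endothelial markers summed to 312 and 313 CPM in Rgs5-high cells, against 2.55 to 14.6 CPM in the other groups. Of the defining endothelial markers, Cdh5 and Tek were at 0 UMIs on both days, Kdr at 0 and 1 UMI and Pecam1 at 3.20 and 8.01 CPM, while Esam (116 and 158 CPM), Flt1 (125 and 90.9 CPM) and Emcn (54.3 and 31.6 CPM) made up most of the sum. Leaving out every cell with a UMI of any of the 10 left 10 and 26 Rgs5-high cells, in which 1 of the 10 members had enough UMIs to be counted. The part of these cells in the Fabp4 level was not tested.

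Fabp5, the epidermal-type fatty acid binding protein, had UMIs in 64.6% of all cells without Ptprc on day 10 and 65.1% on day 14. Aspn-high cells were at 442 CPM on day 10 (431 to 453) and 537 on day 14 (530 to 545), and Rgs5-high cells at 434 (393 to 478) and 514 (484 to 546), so that the first 2 places did not differ beyond counting error on either day. Cyp1b1-high cells were at 302 and 273 CPM and Cnmd-high cells at 195 and 336 CPM, and these 2 groups changed places between the days. On day 7 the 56 Cnmd-high cells were at 293 CPM (263 to 326). Col10a1-high cells were at 41.1 (36.3 to 46.3) and 47.6 CPM (44.2 to 51.2) and Ifitm5-high cells at 55.6 (46.1 to 66.4) and 100.3 CPM (92.1 to 109), the last 2 places, whose intervals overlapped on day 10 but not on day 14. The ratio to all other cells was 0.156 and 0.113 in Col10a1-high cells and 0.219 and 0.254 in Ifitm5-high cells.

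Ffar4 was highest in Col10a1-high cells. Their level was 186 CPM on day 10 (175 to 197) and 123 CPM on day 14 (117 to 128), and the other groups had 9.89 CPM or less, while cells in no group were at 13.6 and 28.4 CPM. Cnmd-high cells were at 4.02 and 8.33 CPM and Aspn-high cells at 3.45 and 5.09 CPM. No Ffar4 UMI was found in Cyp1b1-high or Rgs5-high cells on day 10, where a count of 0 allows up to 3.53 and 3.20 CPM. Rgs5-high cells were at 9.89 CPM (6.12 to 15.1) on day 14. In Col10a1-high cells the ratio to all others was 26.4 (24.1 to 28.9) on day 10 and 7.71 (7.24 to 8.21) on day 14. The level in those other cells was 7.04 CPM on day 10 and 15.9 CPM on day 14. The group held 61.5% of all Ffar4 UMIs of cells without Ptprc on day 10 and 45.9% on day 14, while cells in no group held 25.1% and 42.0%. At 2000 UMIs a cell, 22.8% of Col10a1-high cells had a Ffar4 UMI on day 10 and 20.2% on day 14 (62.1% and 55.9% unthinned), against 0% in Ifitm5-high cells on both days (1.67% and 1.10% unthinned). Of the Col10a1-high cells with a Ffar4 UMI after thinning, 68.2% on day 10 and 65.9% on day 14 also had one of Ihh, against 65.3% and 63.8% of those without.

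**Figure D1:**
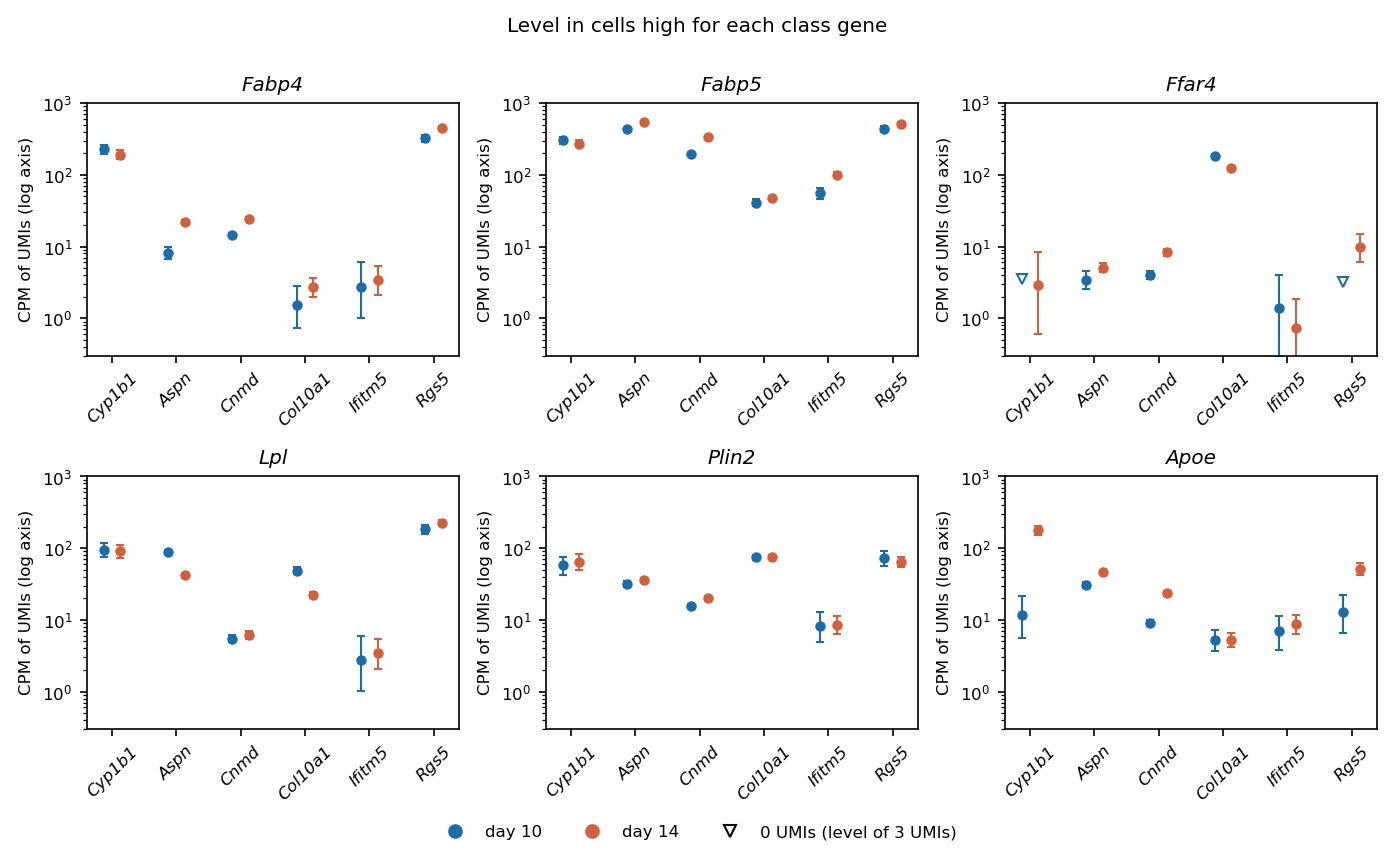
Levels of 6 genes in the 6 groups of cells on day 10 (blue) and day 14 (orange), as CPM of summed UMIs on a log axis, with exact 95% counting intervals; open triangles mark 0 UMIs, drawn at the level of 3 UMIs. Fabp4 and Lpl peaked in Rgs5-high cells, at 326 and 454 CPM and at 182 and 224 CPM, and Ffar4 in Col10a1-high cells, at 186 and 123 CPM.

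Lpl was also highest in Rgs5-high cells, at 182 CPM on day 10 (156 to 212) and 224 CPM on day 14 (204 to 245). Here the transcript was widespread, since 69.0% and 69.7% of cells had a UMI, or 33.3% and 32.3% at 2000 UMIs a cell, against 0% and 1.65% in Ifitm5-high cells (3.33% and 3.84% unthinned). Cyp1b1-high cells were at 95.2 (75.6 to 118) and 90.3 CPM (72.9 to 111). Aspn-high cells matched them within counting error on day 10, at 88.8 CPM (84.1 to 93.7), but not on day 14, at 41.6 CPM (39.5 to 43.8). Cnmd-high cells were at 1.76, 5.47 and 6.17 CPM on days 7, 10 and 14, and Ifitm5-high cells at 2.76 and 3.46 CPM. The ratio to all others was 6.52 (5.55 to 7.6) and 8.80 (7.99 to 9.69) in Rgs5-high cells and 0.110 and 0.179 in Cnmd-high cells. In Col10a1-high cells, at 48.4 and 22.3 CPM, the tenth of cells with the highest Lpl level carried 97.4% of the summed level on day 10.

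Plin2 was highest in Col10a1-high cells at 74.5 CPM (68.0 to 81.4) and 74.8 CPM (70.5 to 79.3). Rgs5-high cells, at 72.4 (56.3 to 91.8) and 64.5 CPM (54.2 to 76.3), and Cyp1b1-high cells, at 57.6 (42.6 to 76.1) and 65.0 CPM (50.4 to 82.6), overlapped with them on both days. Cnmd-high cells had 13.2, 15.7 and 19.96 CPM on days 7, 10 and 14, and Ifitm5-high cells the least, 8.27 and 8.55 CPM. Between the neighbouring Cnmd-high and Col10a1-high groups the Plin2 intervals were well apart on both days. The ratio of Col10a1-high cells to all others was 3.19 (2.89 to 3.52) and 2.20 (2.06 to 2.35). Among Col10a1-high cells thinned to 2000 UMIs on day 14, 17.9% of those with a Ffar4 UMI and 12.8% of those without had one of Plin2, and on day 10 the order was the opposite, 11.8% and 13.9%.

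Apoe was at 30.3 CPM on day 10 and 46.3 CPM on day 14 in Aspn-high cells and at 5.25 and 5.30 CPM in Col10a1-high cells. In Cyp1b1-high cells it went from 11.8 CPM (5.64 to 21.6, 10 UMIs) to 177 CPM (152 to 204, 182 UMIs). On day 14, 48 of the 69 cells had no Apoe UMI and 5 cells held 141 of the 182 UMIs, or 77.5%. The remaining 64 cells were at 42.6 CPM (30.6 to 57.8). The 10 macrophage markers rose in the same group from 3.53 to 19.4 CPM in sum, with Adgre1, Fcgr1, C1qc and Ms4a7 at 0 on both days. C1qa, C1qb and Mrc1 were at 0 on day 10 but were found on day 14, and Cd68 was at 0 on day 14 only. Of the 5 cells, 1 had a macrophage marker UMI, and the 5 held 3 of the 20 such UMIs of the group. Cxcl12 was at 4726 CPM in the 5 cells against 1003 CPM in the remaining 64, and 1 of the 5 had Adipoq UMIs (3). The part of macrophage transcripts in the Apoe level was not tested.

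The adipogenic regulators among the members, Pparg and Cebpa, were scarce. Pparg summed to 74 UMIs on day 10 and 172 on day 14 over all cells without Ptprc, or 0.652 and 1.13 CPM, and was highest in Rgs5-high cells at 4.26 (1.16 to 10.9) and 12.7 CPM (8.38 to 18.5). No Pparg UMI was found in the 120 and 365 Ifitm5-high cells, which allows up to 1.38 and 0.546 CPM. Cebpa was at 14.1 (7.29 to 24.6) and 7.76 CPM (3.35 to 15.3) in Cyp1b1-high cells and at 6.39 (2.35 to 13.9) and 12.7 CPM (8.38 to 18.5) in Rgs5-high cells, 2 groups whose intervals overlapped on both days. Cd36 was nearly absent, with 3, 2 and 5 UMIs on days 7, 10 and 14 in all cells without Ptprc. Its order over the groups cannot be read at this depth.

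Adipoq was found in 6 cells on day 10, with 1 UMI each, and in 17 cells on day 14, with 50 UMIs. Of these 50 UMIs, 39 were in 6 cells with 3 or more each, and 18 were in 1 cell. The 6 cells were chosen on Adipoq, so its level in them is no result, and they were singled out after earlier values of these data had been seen. Of the 6, 2 were Cyp1b1-high and the others were in no group, and the median depth of the 6 was 4952 UMIs a cell against 15840 in the other 9674 cells. Summed over the 6 cells, Cyp1b1 was at 213 CPM, above the 48.8 CPM threshold of its group. This sum includes the 2 Cyp1b1-high cells, so it does not give the level in the others. A shallow cell can miss that group through the minimum of 3 UMIs, but whether any of the others did was not tested. All 6 had UMIs of Lpl, Apoe and Cxcl12. Lpl was at 1958 CPM (1578 to 2401, 92 UMIs), Apoe at 2362 CPM (1943 to 2845, 111 UMIs) and Cxcl12 at 13066 CPM (12053 to 14142), against 27.6, 28.3 and 58.4 CPM in the other cells. The leptin receptor gene Lepr was at 447 CPM against 4.13, and Kitl, stem cell factor, at 553 against 10.6. Fabp4 was at 21.3 CPM (0.539 to 119, 1 UMI), an interval that holds the 35.1 CPM of the other cells. Of the 16 genes of mature adipocytes, Agpat2 had 3 UMIs (63.8 CPM, 13.2 to 187, against 18.8) and Adrb3 had 1 (21.3 CPM against 0.0262), and the others, Plin1, Plin4, Cidec and Cfd among them, had none, which allows up to 63.8 CPM. Over all cells without Ptprc on day 14, Plin1 had 17 UMIs, Plin4 14, Cfd 1, and Cidec and Lep 0.

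**Figure D2:**
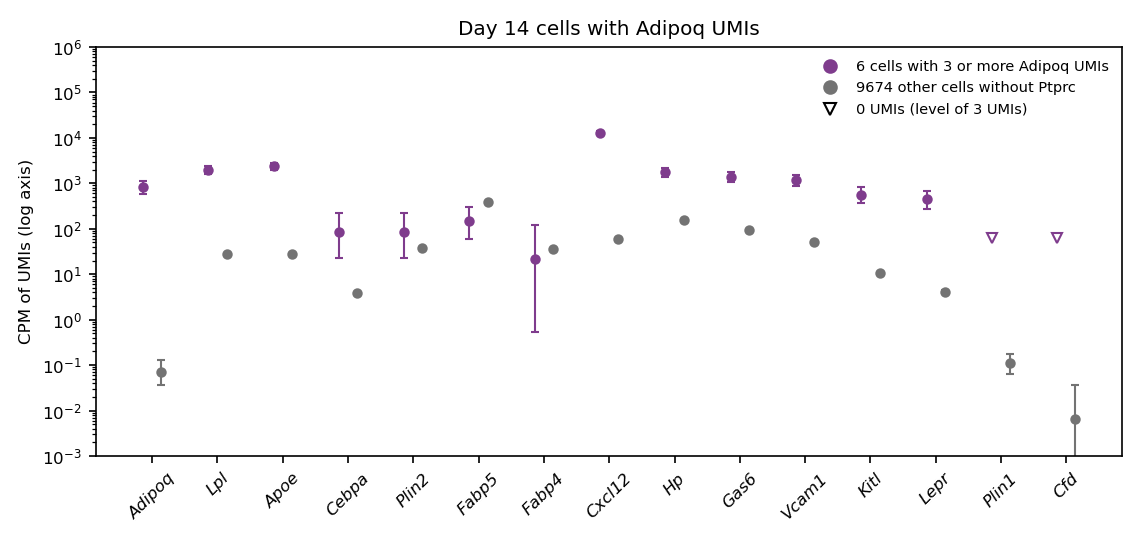
CPM of summed UMIs on a log axis, with exact 95% counting intervals, in the 6 cells of day 14 with 3 or more Adipoq UMIs (purple) and in the other 9674 cells without Ptprc (grey); open triangles mark 0 UMIs, drawn at the level of 3 UMIs. Lpl, Apoe, Cxcl12, Kitl and Lepr lay far above the other cells, whereas Fabp5 was at 149 CPM against 385.

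The members were then counted by a fold of 2 over all other cells without Ptprc on both day 10 and day 14, among genes with at least 10 UMIs anticipated on each side. In Rgs5-high cells, Fabp4 and Lpl of 6 members were higher and Ffar4 was lower, where 5.99% of all genes were higher and 9.26% lower. In Cyp1b1-high cells the same 2 were higher and the same 1 lower, of 6, against 3.09% and 4.11% of all genes. In Col10a1-high cells, Ffar4 and Plin2 of 7 were higher and Fabp4, Fabp5 and Apoe lower, where the shares of all genes were 3.58% and 12.4%. In Ifitm5-high cells none of 6 was higher and all 6, namely Fabp4, Fabp5, Ffar4, Lpl, Plin2 and Apoe, were lower, where 2.12% of all genes were higher and 10.6% lower. In Cnmd-high cells none of 8 was higher and Ffar4, Lpl and Plin2 were lower (1.93% and 12.5% of all genes). In Aspn-high cells none of 7 was higher and Ffar4 was lower (6.25% and 5.65% of all genes), with Fabp5 just under the limit at ratios of 1.99 and 1.59. Nothing is read from these counts for Fabp4, Fabp5 and Ffar4, for which the set was chosen.

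**Figure D3:**
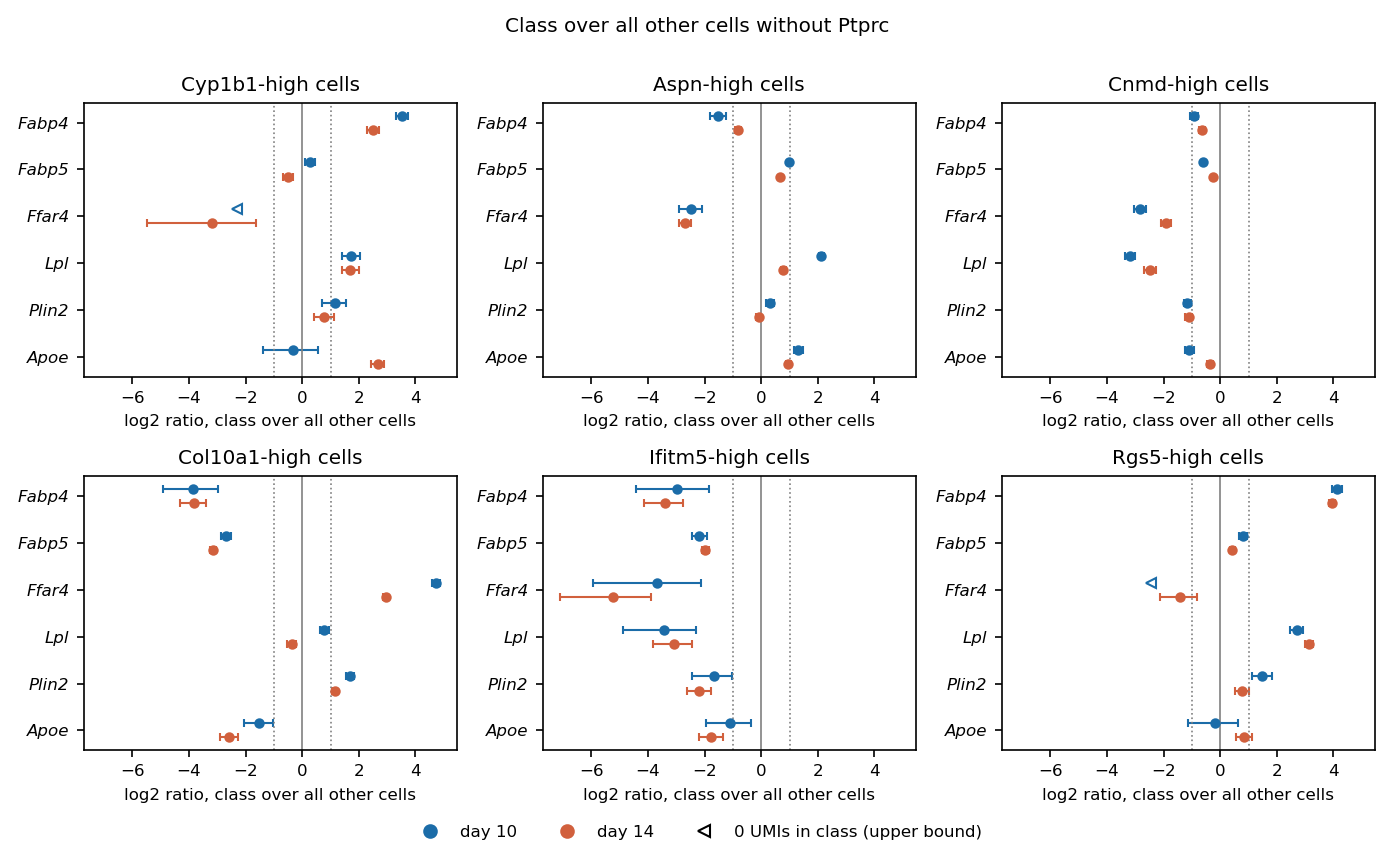
Log2 ratio of the level in each group over that in all other cells without Ptprc, for 6 genes on day 10 (blue) and day 14 (orange), with exact 95% counting intervals; dotted lines mark a fold of 2 and open triangles an upper bound from 0 UMIs. All 6 genes lay left of 0 in Ifitm5-high cells, and Fabp4 and Lpl lay right of the fold of 2 in Cyp1b1-high and Rgs5-high cells on both days.

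Between day 10 and day 14, 7 of the ratios counted passed a fold of 2. Lpl fell by 1.09 on the log2 scale in Aspn-high cells (ratio 0.468, 0.434 to 0.505) and by 1.12 in Col10a1-high cells (0.462, 0.395 to 0.540), while in Rgs5-high cells the ratio was 1.23 (1.03 to 1.47) and in Cyp1b1-high cells 0.948 (0.696 to 1.29). Fabp4 was 2.73-fold higher on day 14 in Aspn-high cells (2.25 to 3.34). Ffar4 was 2.07-fold higher in Cnmd-high cells (1.73 to 2.49) and its ratio was 0.660 in Col10a1-high cells (0.614 to 0.710). Apoe was higher on day 14 in Cyp1b1-high cells (15.0-fold, 7.99 to 31.9, or 42.6 against 11.8 CPM without the 5 cells that held 77.5% of its UMIs on day 14), Rgs5-high cells (4.05-fold, 2.23 to 8.08) and Cnmd-high cells (2.61-fold, 2.32 to 2.93), and its ratio was 1.009 in Col10a1-high cells (0.667 to 1.55). The median Rgs5-high cell and the median Cnmd-high cell had no Apoe UMI on either day. On day 14 the tenth of cells with the highest Apoe level carried 94.4% of the summed level in Rgs5-high and 91.6% in Cnmd-high cells. Plin2 stayed within a fold of 2 in each group, with ratios from 0.891 to 1.27.

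The counts past a fold of 2 were 1 of 5 members in Cyp1b1-high cells (Apoe higher), where 4.14% of all genes were higher on day 14 and 5.7% lower, and 2 of 8 in Aspn-high cells (Fabp4 higher, Lpl lower), where 1.93% were higher and 2.66% lower. They were 2 of 8 in Cnmd-high cells (Ffar4 and Apoe higher; 1.87% and 2.46% of all genes) and 1 of 7 in Col10a1-high cells (Lpl lower; 1.7% and 1.64%). Of the 6 members counted in Rgs5-high cells, Apoe was higher (2.93% and 2.05%), and of the 3 in Ifitm5-high cells none passed, where 1.65% of all genes were higher and the same share lower. Neutrophil markers also rose between the days, from 3.66 to 249 CPM in sum in Aspn-high cells, from 1.49 to 42.6 in Cnmd-high cells and from 6.39 to 28.7 in Rgs5-high cells. Without the cells that had a UMI of any of the 6 neutrophil markers, Fabp4 in Aspn-high cells was at 8.07 and 22.5 CPM, Lpl in Aspn-high cells at 90.5 and 41.7 CPM, and Apoe in Cnmd-high cells at 8.54 and 25.7 CPM.

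**Figure D4:**
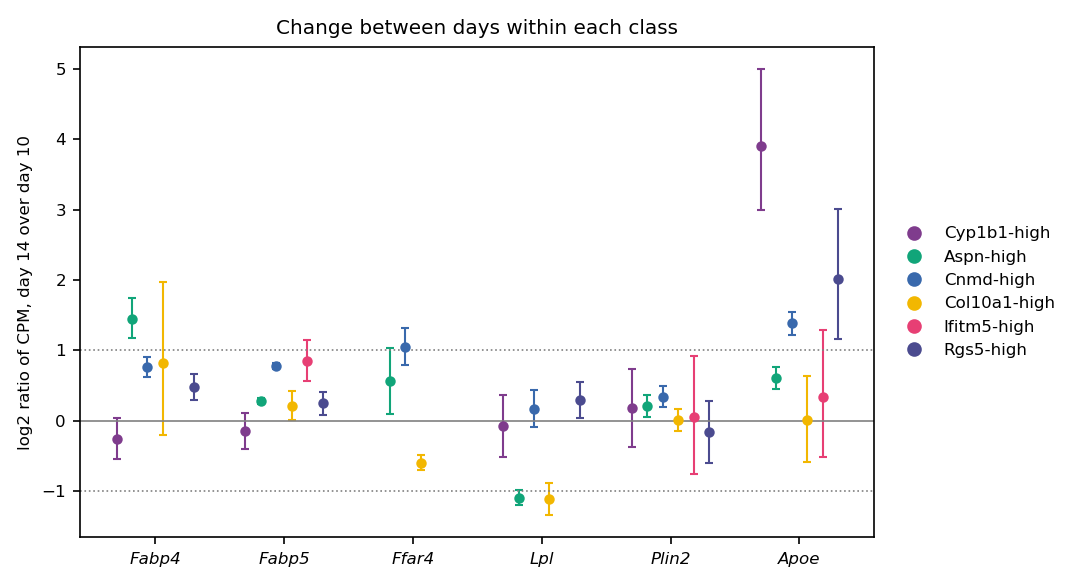
Log2 ratio of the level on day 14 over that on day 10 for 6 genes in each group of cells (colours), with exact 95% counting intervals; dotted lines mark a fold of 2, and pairs with fewer than 10 UMIs anticipated on either day are left out. Lpl lay below -1 in Aspn-high and Col10a1-high cells, and the largest ratio was that of Apoe in Cyp1b1-high cells, 3.91, where 5 of 69 cells held 77.5% of the UMIs on day 14.

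Other genes of lipid handling were counted from lists of related function. Of 13 genes of fatty acid uptake and activation, Acsl5, an acyl-CoA synthetase, was higher in Rgs5-high cells (51.1 and 40.5 CPM against 13.4 and 12.7) and in Cyp1b1-high cells (43.5 and 30.1 CPM), in each of which 7 were counted. Of these 7, 2 were lower in Rgs5-high cells and 0 in Cyp1b1-high cells. Of all genes, 5.99% were higher and 9.26% lower in Rgs5-high cells, and 3.09% and 4.11% in Cyp1b1-high cells. Ifitm5-high cells, low for the 6 members, held Fabp3, the heart-type fatty acid binding protein, at 102 and 122 CPM against 15.2 and 20.2 CPM. It was the single gene higher of 10 counted from this list, and 1 was lower. From the lipoprotein list, 3 of 11 were higher and 3 lower there, where 2.12% of all genes were higher and 10.6% lower. The 3 higher were the receptor gene Vldlr (209 and 203 CPM against 32.9 and 25.7), the cholesterol exporter gene Abca1 (62.5 and 57.1 against 14.5 and 17.2) and Pltp, the phospholipid transfer protein (400.3 and 632 against 167 and 208). In Col10a1-high cells the endothelial lipase gene Lipg was at 37.7 and 13.1 CPM against 0.756 and 0.335, and Pcsk6, a convertase that cleaves lipases, at 541 and 499 against 48.5 and 74.02. These were the 2 higher of 12 counted from the lipoprotein list, and 1 was lower (3.58% and 12.4% of all genes). In Col10a1-high cells 2 of 12 genes of lipid droplets and lipolysis were higher and 1 was lower. The 2 higher were the phosphatidate phosphatase gene Lpin1 (23.6 and 19.7 CPM against 5.85 and 7.37) and Fitm2, which serves droplet budding (37.9 and 22.8 CPM against 10.6 and 10.3).

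Cyp1b1-high cells had Angptl4, an inhibitor of lipoprotein lipase, at 134 and 182 CPM against 33.9 and 41.0 CPM. Of the 11 genes of the lipoprotein list counted there, 2 were higher and 4 lower, where 3.09% of all genes were higher and 4.11% lower. From the list of adipogenic marrow stroma, 5 of 7 genes counted were higher in Cyp1b1-high cells and 0 lower, with Cxcl12, Cxcl14 (142 and 86.4 CPM against 15.3 and 19.5), Sfrp4 (71.7 and 62.1 against 14.4 and 10.3) and Gas6 (145 and 614 against 49.7 and 90.7) leading. Of the adipogenic regulators other than members, Ebf1 was at 688 and 721 CPM in Rgs5-high cells against 95.5 and 111 CPM, and Cebpb was higher in Rgs5-high and Cyp1b1-high cells (450 and 283 CPM, and 442 and 319 CPM, against 192 and 130 CPM outside Rgs5-high cells). Of the 7 regulators counted in Rgs5-high cells, Ebf1 and Cebpb were the 2 higher and 0 were lower (5.99% and 9.26% of all genes). Of the 7 in Cyp1b1-high cells, Cebpb was the 1 higher and 0 were lower (3.09% and 4.11%). Ebf2 was at 11.1 and 8.75 CPM in Aspn-high cells against 4.11 and 3.63 CPM. It was the 1 higher of 17 regulators counted there, with 2 lower, where 6.25% of all genes were higher and 5.65% lower. Nothing is read from this count. Of 17 genes of fatty acid oxidation, none was higher in any group but Acads, a short-chain dehydrogenase, in Rgs5-high cells (47.9 and 49.9 CPM against 19.97 and 22.3). It was the 1 higher of 14 counted there, with 0 lower, where 5.99% of all genes were higher and 9.26% lower, and nothing is read from this count. From the 16 genes of mature adipocytes, at most 3 could be counted in any group and none was higher.

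Cells were also grouped by the 3 leading members, by the same rule. There were 175 and 382 cells high for Fabp4 on days 10 and 14, 422 and 1095 for Fabp5 and 221 and 500 for Ffar4. As shares of all cells without Ptprc these were 2.66% and 3.95% for Fabp4, 6.41% and 11.3% for Fabp5, and 3.36% and 5.17% for Ffar4. Of the Fabp4-high cells, 22.3% and 34.3% were also Fabp5-high, which was 9.24% and 11.96% of the Fabp5-high cells. No cell on day 10 and 8 on day 14 were high for both Fabp4 and Ffar4, or 0% and 2.09% of the Fabp4-high cells. The 5 genes that led the Fabp4-high cells, by the fold over other cells, were Cxcl5, a chemokine gene (71.9 and 83.8 CPM against 5.19 and 2.64), the smooth muscle genes Myh11 (27.6 and 33.0 CPM against 1.59 and 2.59) and Ppp1r14a (38.0 and 42.0 CPM against 4.99 and 5.60), and Ctla2a and Higd1b. Of the Fabp4-high cells, 28.6% and 13.1% were Cnmd-high, 2.86% and 16.8% Aspn-high, 9.71% and 4.71% Cyp1b1-high, 5.71% and 13.9% Rgs5-high, and 52.6% and 50.3% in no group. The Fabp4-high cells were 30.9% and 26.1% of the Cyp1b1-high cells and 14.1% and 26.8% of the Rgs5-high cells. They were 1.83% and 3.09% of the Cnmd-high cells and 0.5% and 2.6% of the Aspn-high cells, both below the 2.66% and 3.95% of all cells. The 10 endothelial markers summed to 33.5 and 45.7 CPM in Fabp4-high cells against 8.64 and 10.8 CPM (2 and 3 of them at 0), the 6 muscle markers to 25.8 and 34.7 against 9.74 and 8.79 CPM (3 and 4 at 0), and the 6 erythroid markers to 54.5 against 4.07 CPM on day 10 and 2.17 against 7.73 CPM on day 14 (1 and 2 at 0). Of the muscle markers, Des was at 302 and 320 CPM in Rgs5-high cells, where Myod1, Pax7, Ckm and Myf5 had 0 UMIs on both days. The part of all these marker transcripts in the Fabp4 level was not tested.

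Fabp5-high cells were led by Msmp, by Hsd11b2, whose product inactivates glucocorticoids (18.8 and 23.8 CPM against 2.97 and 4.13), by Fabp4 itself (71.9 and 129 CPM against 18.2 and 23.2), and by B4galnt4 and the metalloproteinase gene Mmp9 (108 and 192 CPM against 30.5 and 32.2). The 6 osteoclast markers, of which Mmp9 is one, summed to 126 and 208 CPM in these cells against 43.1 and 47.1 CPM (2 and 1 of them at 0). Mmp9 alone made up 108 and 192 CPM of that sum, and 30.5 and 32.2 CPM in the other cells, so that most of the excess was this 1 gene. The endothelial markers summed to 20.1 and 18.9 CPM against 8.57 and 11.4, and the erythroid markers to 18.5 against 4.49 CPM on day 10. The part of these transcripts in the Fabp5 level was not tested. Ffar4-high cells were led by Pla2g10, a secreted phospholipase (12.1 and 11.3 CPM against 1.41 and 1.44), Pcdh17, 1810008I18Rik, Kirrel3 (52.8 and 40.2 CPM against 2.16 and 5.25) and Depp1 (46.6 and 34.1 CPM against 2.16 and 4.46). Of them 65.6% and 49.4% were Col10a1-high. These were 38.2% and 28.5% of the Col10a1-high cells, while 3.36% and 5.17% of all cells without Ptprc were Ffar4-high. Plin2 was at 77.5 and 84.9 CPM in Ffar4-high cells against 24.3 and 34.9 CPM in the other cells. The osteoclast markers were at 105 and 62.5 CPM in sum in Ffar4-high cells against 45.9 and 65.4 CPM (3 of 6 at 0 on both days). In Col10a1-high cells, Mmp9 made up 97.2 of the 104 CPM of this sum on day 10 and 87.1 of 93.7 CPM on day 14. These leading genes were found in the same cells that were grouped, so no test bears on them.

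Over the 12 profiles (6 groups on 2 days, which share libraries), the genes most like each member by Pearson's r of log2(CPM + 10) were Casp4, Psmb9 and Il1r1 for Fabp4 (0.97, 0.96 and 0.96), Timm10, Prmt1 and Abhd11 for Fabp5 (0.98, 0.97 and 0.96) and Map1lc3b, Kirrel3 and Depp1 for Ffar4 (0.98 each). For Lpl they were Map1b, Lims1 and S100a6 (0.97 each), for Plin2 Kctd20, H2afv and Cmc1 (0.97, 0.97 and 0.96), for Cebpa Zfp617, Ppih and Pi15 (0.95, 0.94 and 0.94) and for Apoe Gstt2, Zfp984 and Btbd19 (0.94, 0.93 and 0.92). Among the members themselves, r was highest for Fabp4 with Cebpa (0.86) and for Lpl with Plin2 (0.80), and lowest for Fabp5 with Ffar4 (-0.62). Cebpa had 558 UMIs over the 12 profiles, the fewest of the members compared. Its levels stood near or under the 10 CPM added before the log, so its r values rest on low counts. Cd36, Pparg and Adipoq had too few UMIs in the profiles for such a comparison.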

How the data were processed

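Live cells negative for CD45, CD31 and TER119 were captured from digested callus by the authors with a 10x Genomics 3′ kit, given as v2 in the labels and as v.3.1 in the study's methods. The deposited values are raw UMI counts for each gene and cell, not normalized, made by the authors with Cell Ranger, given as version 3.0 with mm10 in the submitters' processing notes and as v.4.0.0 with the mouse genome v.M20 in the methods. The study's limits were applied here (500 to 5000 genes, at most 10% mitochondrial and 5% hemoglobin UMIs). No doublet caller was run beyond the upper gene limit. Libraries shared 29 to 42 barcodes, each under 0.5% of the smaller library. CPM is computed from summed counts, with exact Poisson, binomial and Clopper-Pearson intervals (95%, counting error only), and a count of 0 was set to 3 UMIs for bounds. Cells high for several genes went to the gene with the largest share of its 99th percentile. Named genes were all 10 members, up to 4 genes of each list that were 2-fold higher on both days, the 3 genes most like each member over profiles, the 5 genes leading cells high for Fabp4, Fabp5 or Ffar4 (at least 50 UMIs each day), and check markers. The scripts (Python 3.11.15, numpy 2.4.6, scipy 1.17.1) were tested on simulated counts. Members, lists and groups were chosen with earlier results of these data known. Alternatives covered thresholds, limits, scaling and marker-positive cells, and the one on neutrophil markers was added after seeing the data.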

Additional observations from a re-analysis of the deposited data

Results flagged for a closer look

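Ffar4 moved in opposite directions between day 10 and day 14 in 2 neighbouring groups of cells, by 1.05 on the log2 scale in Cnmd-high cells (interval 0.79 to 1.32) and by -0.60 in Col10a1-high cells (-0.70 to -0.49), and with 1 library a day the difference was not tested. Cells with Ptprc UMIs, which the comparisons leave out, held members above the level in cells without Ptprc. On day 7 (6570 cells), Plin2 was at 56.9 CPM against 37.2 and Apoe at 98.3 CPM against 39.0. On day 14 (173 cells), Lpl was at 59.7 CPM against 28.2, Adipoq at 2.84 CPM (6 UMIs) against 0.328 and Plin2 at 68.7 CPM against 38.0.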

How the results depend on the processing

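No paired analysis was possible because each day has 1 library and no replicate, and for the same reason no replicate could be left out. The counts of members were recomputed under 14 alternatives, and the 47 ratios behind them and the group in which each member was highest under 12. Of the ratios, 462 of 556 recomputed values stayed within the counting interval, 93 moved outside it with the same sign and 1 reversed, Apoe in Ifitm5-high cells on day 10 without the upper limit of genes (log2 ratio 0.0054 in place of -1.10). The member's leading group was kept for at least 14 of 17 pairs of member and day under each alternative.

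The count of members higher fell from 2 to 0 in Cyp1b1-high and in Rgs5-high cells with cells thinned to 2000 UMIs, since 1 member then had enough UMIs to be counted in each, and the members lower fell from 1 to 0 in both and from 6 to 1 in Ifitm5-high cells. Thinned, members lower in Aspn-high cells were 2 in place of 1, and members changed between days were 1 in Aspn-high, 1 in Cnmd-high, 1 in Ifitm5-high and 0 in Rgs5-high cells. Without cells holding endothelial markers, 0 were higher and 0 lower in Rgs5-high cells, again with 1 member counted, and 1 was higher in Aspn-high cells in place of 0, as it was at 0.1 of the 99th percentile, at the mitochondrial limit of 5% and with no limit on Ptprc. By the mean over cells, 2 members were lower in Aspn-high cells, and 2 changed between days in Col10a1-high cells in place of 1. That last count was 0 at 0.1 of the 99th percentile, with no limit on Ptprc and without cells holding macrophage markers, and 2 with no upper limit of genes. Without that upper limit, 1 member changed in Cnmd-high cells in place of 2 and 2 in Rgs5-high cells in place of 1, as also without cells high for several genes and without the 20 most abundant genes in the scaling. The cause of these changes other than thinning and the endothelial markers was not tested.

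With a fold of 1.5, 3 members were higher and 2 lower in Aspn-high cells and 6 lower in Cnmd-high cells, and members changed between days were 4 in Aspn-high, 4 in Cnmd-high, 3 in Col10a1-high, 1 in Ifitm5-high and 2 in Rgs5-high cells. With a fold of 4, 1 was higher in Cyp1b1-high and 1 in Col10a1-high cells, members lower were 1 in Cnmd-high, 3 in Ifitm5-high and 0 in Rgs5-high cells, and none changed between days in Aspn-high, Cnmd-high or Col10a1-high cells (0 in each).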

Other observations

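The Cnmd-high cells of day 7 are the 1 group that could be followed over 3 days, and the upper limit of 5000 genes bears on its values. Without that limit the group had 147 cells in place of 56, Fabp4 was at 17.0 CPM (13.6 to 21.0) in place of 36.9, and Fabp5 at 236 CPM (223 to 250) in place of 293. In these 56 cells the neutrophil markers summed to 2021 CPM and every cell had a UMI of at least 1 of them. Without the upper limit, 22 Aspn-high cells were also found on day 7, with Fabp5 at 554 CPM (498 to 615), Lpl at 56.1 CPM (39.3 to 77.6) and Apoe at 59.2 CPM (41.9 to 81.2).

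Cidea, a droplet protein gene of adipocytes, came after Agpat2 in counts among the genes of the mature adipocyte list, with 270 UMIs on day 10 and 302 on day 14. It was at 3.44 and 2.67 CPM in Cnmd-high cells and 2.63 and 3.84 CPM in Col10a1-high cells, and at 0 UMIs in Cyp1b1-high cells on both days, which allows up to 3.53 and 2.91 CPM, so that its order between these groups cannot be read. It was singled out after its values were seen.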
